A study of Homo sapiens with 6 samples.

Results

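SWI/SNF complexes are chromatin remodellers that use ATP to slide and eject nucleosomes. Transcript levels are described here for 10 genes that encode subunits of these complexes, out of 60651 genes in the tables: the ATPases *SMARCA4* and *SMARCA2*, the large DNA-binding subunits *ARID1A*, *ARID1B* and *ARID2*, the core subunits *SMARCB1*, *SMARCC1* and *SMARCC2*, and the actin-related subunits *ACTL6A* and *ACTL6B*. The genes were chosen by symbol and not by a threshold on their values, though with earlier results of these data known, and every symbol was found once. Another 21 subunit genes were taken as the rest of the complex.

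The libraries were total RNA, depleted of ribosomal RNA, from 6 cultures of a human neuroblastoma cell line. The titles of 3 name ethanol (EtOH), the vehicle, and those of the other 3 name tetracycline (Tet), given for 5 days per the labels. The labels give no single cell model: the titles name IMR575 (IMR-5/75, a *MYCN*-amplified line), a tag reads knockdown with the values Control and Induction, and the protocol text names SK-N-SH with a tetracycline-inducible *MYCN* expression system, the tetracycline repressor, and selection of single clones with G418 and Blasticidin. The study's methods describe SK-N-AS cells with inducible *MYCN*, and IMR-5/75 cells in which an shRNA against *MYCN* can be induced. Libraries are therefore called by their labels, EtOH or Tet, and no direction of *MYCN* is assumed. Nothing in the labels says that replicates came from separate clones, so p-values measure the spread between these cultures.

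Each complex holds 1 ATPase, either SMARCA4 (BRG1) or SMARCA2 (BRM), in most forms on a core of SMARCB1 and the scaffold proteins SMARCC1 and SMARCC2. ARID1A or ARID1B defines the canonical BAF complex and ARID2 the PBAF complex, while a non-canonical form carries neither kind of subunit and holds BRD9. Many subunits are encoded by paralogues that replace each other. In the textbook case, neural progenitors carry ACTL6A (BAF53a), and neurons that leave the cell cycle exchange it for ACTL6B (BAF53b). In that exchange the microRNAs miR-9-3p and miR-124 repress the *ACTL6A* transcript through its 3′ untranslated region (UTR), and REST represses neuronal genes, these microRNAs among them, in cells that are not neurons.

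The sequences behind that exchange are shown because the levels of both transcripts and of the microRNA's host gene are given below. The mature miR-9-3p, 1 of whose genes lies on the minus strand at chr1:156420354-156420375 (GRCh38.p14, from RefSeq) within *MIR9-1HG*, is printed with its seed, bases 2 to 8, in capitals. The next 2 lines are stretches of 30 bases from the 3′ UTR of *ACTL6A* (plus strand, GRCh38, at chr3:179588044-179588073 and chr3:179588133-179588162), with the 7 bases complementary to the seed in capitals.

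miR-9-3p: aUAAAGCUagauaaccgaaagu

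*ACTL6A* first site: caccttacgtttcatAGCTTTAgtatactc

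*ACTL6A* second site: acttaaattttttaaAGCTTTAactggctc

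The *ACTL6A* 3′ UTR of the MANE Select transcript (the reference transcript of the gene) is 397 bases long and holds 2 such matches. The 149-base 3′ UTR of *ACTL6B* holds 0. Among 18780 MANE Select 3′ UTRs, 13.8% hold at least 1 match, and among the 2042 that are 300 to 500 bases long, 2.64% hold at least 1 and 0.049% hold 2 or more. The *ACTL6A* 3′ UTR is itself among these 2042 and alone makes up the share with 2 or more, so that share is no independent background. A match describes the letters only and does not show that the microRNA binds in these cells. Between the 2 transcripts the longest identical run is 16 bases, and no stretch of 100 bases is shared in which reads of the 2 could not be told apart. The longest runs were 29 bases for *ARID1A* and *ARID1B*, 26 for *SMARCA4* and *SMARCA2*, and 23 for *SMARCC1* and *SMARCC2*, again with 0 shared stretches of 100 bases. The E-box CACGTG, a motif bound by MYC family proteins and read here on both strands, was in 7.26% of 35116 RefSeq promoter windows (250 bases before to 50 after a start, GRCh38.p14) and in 0 of the 11 windows listed for 6 of the 10 genes. No window is listed for *ARID2*, *SMARCC1*, *SMARCC2* and *ACTL6A*.

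The libraries held 27933378 to 40498065 counts, at which 3 counts equal 0.0741 to 0.107 CPM (counts relative to the library total, with the TMM correction for composition). *MYCN* itself stood at 158, 256 and 156 CPM in the EtOH libraries and at 197, 200 and 145 CPM in the Tet libraries, so the groups overlapped. The log2 fold change of Tet against EtOH was -0.07 with an SE of 0.23 (edgeR, adjusted p = 0.956). Of the adrenergic neuroblastoma markers, *GATA3* was at 229 to 334 CPM, while the noradrenaline enzymes *DBH* and *TH* did not exceed 0.453 and 0.0252 CPM. The libraries also differed in base composition. The fifth of genes with the highest GC content (over 52.8% of exon bases) had a median log2 deviation from the 6-library mean of 0.23, -0.35 and -0.01 in EtOH replicates 1 to 3, and of -0.13, -0.19 and 0.51 in Tet replicates 1 to 3.

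The 10 genes spanned a wide range of levels. Per kilobase of exon, *SMARCC1* was at 31.9 CPM on average over the 6 libraries (range 28.4 to 34.7). *ARID2* at 19.2 and *ACTL6A* at 17.9 came next, with overlapping ranges, and both lay below every *SMARCC1* value. *ARID1A* (8.43), *ARID1B* (6.13), *SMARCC2* (3.75) and *SMARCA4* (1.41) followed, each overlapping its neighbour in this order. A gap separated *SMARCA4* from the last 3 genes, *ACTL6B* (0.166), *SMARCB1* (0.0754) and *SMARCA2* (0.0225), whose ranges again overlapped from one to the next. The order depends on the length used for genes with many annotated exons: per kilobase of the MANE Select transcript, *ACTL6A* became 2nd, *ARID1B* 3rd and *ARID2* 4th, while the last 5 places did not change.

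**Figure D1:**
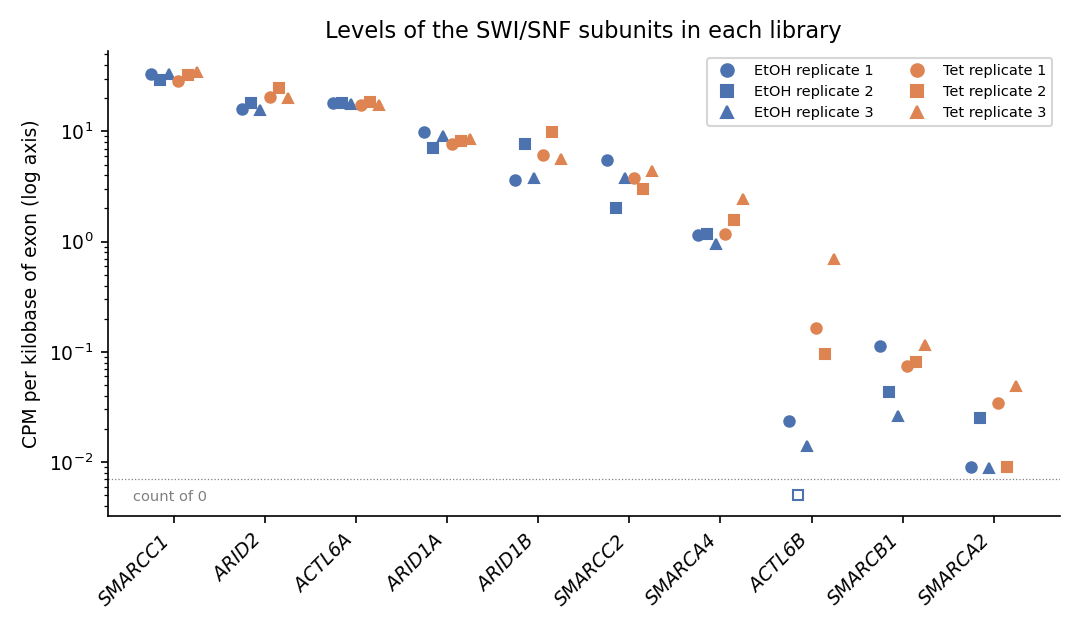
Level of each of the 10 subunit genes in each library, in CPM per kilobase of exon on a log axis. Points are single libraries (blue EtOH, orange Tet, shape for the replicate number), and the open square below the dotted line is the EtOH replicate 2 count of 0 for *ACTL6B*. *SMARCC1*, *ARID2* and *ACTL6A* lie highest, and *ACTL6B* is the gene whose 2 groups stand farthest apart.

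No gene of the 10 passed the test between Tet and EtOH. Of the 9 that passed the filter on low counts, 0 were called at an adjusted p under 0.05 by edgeR, against 0.236% of the 22443 genes tested (0.147% higher and 0.0891% lower in Tet). At an unadjusted p under 0.05 there were 2, *ARID2* and *SMARCA4*, both higher in Tet, where 10.8% of all genes lay under that threshold (5.83% higher and 4.94% lower). The same 2 genes were those whose groups did not overlap, 2 of 9 against 17.5% of all genes (9.2% higher and 8.28% lower). Of the 9, 5 had a log2 fold change above 0 (0.40 to 1.11) and 4 below (-0.09 to -0.01). Over all 22443 genes tested, 11069 were above 0. The median of the 9, 0.40, was the value of *ARID2*, the lowest of those above 0, and that of all genes tested was -0.0061. Limma-voom called 0 of the 9. DESeq2 called 1 of the 10, *ACTL6B*, where it called 2.23% of its genes (1.29% higher).

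The ATPases lay far apart in level. *SMARCA4* was at 17.8, 18.3 and 15.1 CPM in EtOH and at 18.3, 24.8 and 38.0 CPM in Tet. Each Tet library lay above each EtOH library, but Tet replicate 1 exceeded EtOH replicate 2 by very little and the difference rested mostly on Tet replicate 3. The log2 fold change was 0.67 with an SE of 0.27 (edgeR, unadjusted p = 0.0347, adjusted p = 0.417), and without Tet replicate 3 it was 0.34. *SMARCA4* is GC-rich (56.9% of exon bases), and Tet replicate 3 was the library in which GC-rich genes lay highest. With each library corrected for GC content, an alternative added after the data were seen, the log2 fold change was 0.48. What part the base composition has in the difference was not tested otherwise. *SMARCA2* was close to the detection limit, with 6, 13 and 5 counts in EtOH and 17.5, 6 and 36 in Tet. Its groups overlapped, and 1.11 ± 0.72 (log2 fold change ± SE) did not pass the test (edgeR, adjusted p = 0.654); it ran from 0.59 without Tet replicate 3 to 1.76 without EtOH replicate 2. In bulk RNA of this kind, fewer cells that transcribe a gene and less RNA of it per cell cannot be told apart.

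Of the ARID subunits, *ARID2*, which marks PBAF, was at 192, 220 and 188 CPM in EtOH and at 250, 300 and 242 CPM in Tet. All 3 Tet libraries lay above all 3 EtOH libraries. The log2 fold change was 0.40 with an SE of 0.15 (edgeR, unadjusted p = 0.0279, adjusted p = 0.388), and it ranged from 0.30 to 0.48 when each library was left out in turn. *ARID2* is poor in GC (39.0%), and its value after the GC correction was 0.38. *ARID1B* stood at 166, 352 and 175 CPM in EtOH and at 283, 454 and 259 CPM in Tet. Replicate 2 was the highest of each group, and EtOH replicate 2 lay above Tet replicates 1 and 3, so that the groups overlapped. The log2 fold change was 0.52 with an SE of 0.33 (edgeR, adjusted p = 0.643), and it ran from 0.23 without Tet replicate 2 to 0.97 without EtOH replicate 2. *ARID1A*, a tumour suppressor gene in many cancers, was at 159, 113 and 143 CPM in EtOH and at 124, 131 and 135 CPM in Tet. Every Tet value fell inside the EtOH range, with a log2 fold change of -0.09 and an SE of 0.16 (edgeR, adjusted p = 0.908). *ARID1A* also yields a circular RNA, and reads of circular and linear transcripts are not separated in these counts.

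The core subunits had no difference that passed the test. *SMARCC1* (BAF155) was at 255, 222 and 255 CPM in EtOH and at 217, 246 and 264 CPM in Tet, a log2 fold change of -0.01 with an SE of 0.15 (edgeR, adjusted p = 0.99). *SMARCC2* (BAF170) stood at 50.5, 18.6 and 34.7 CPM in EtOH and at 34.9, 27.8 and 39.8 CPM in Tet. The EtOH libraries alone spanned the whole range of the Tet libraries, and the value of -0.02 ± 0.33 (log2 fold change ± SE) changed sign under several alternatives, as did that of *SMARCC1*. *SMARCB1* (INI1, SNF5), the tumour suppressor lost in rhabdoid tumours, had 67, 20 and 13 counts in EtOH and 35, 47 and 75 in Tet, or 0.43 to 1.89 CPM. Its log2 fold change was 0.55 with an SE of 0.54 (edgeR, adjusted p = 0.798), and it ran from 0.17 without EtOH replicate 3 to 1.34 without EtOH replicate 1. *SMARCB1* shares 17.7% of its annotated exon bases with *DERL3* on the other strand, and its counts were whole numbers in all 6 libraries.

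The actin-related pair gave the clearest contrast among the paralogues. *ACTL6A* (chr3:179562886-179588407, plus strand, GRCh38) was at 66.9, 66.4 and 64.9 CPM in EtOH and at 63.3, 67.8 and 63.7 CPM in Tet. These 6 values were close together, and the log2 fold change was -0.03 with an SE of 0.13 (edgeR, adjusted p = 0.978). *ACTL6B* (chr7:100643097-100656448, minus strand) had 2, 0 and 1 counts in the EtOH libraries and 11, 8 and 66 in the Tet libraries, or 0 to 0.0558 CPM against 0.226 to 1.66 CPM. All 3 Tet libraries lay above all 3 EtOH libraries, with Tet replicate 3 well above the other 2.

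*ACTL6B* did not reach the low-count filter and had no value in the planned fit. Summed over libraries and scaled to their totals, its counts of 85 in Tet against 3 in EtOH gave a ratio of 25.7 (95% exact interval 8.50 to 127.1, counting error only). Without Tet replicate 3, 19 counts against 3 gave a ratio of 9.33 (2.75 to 49.2). An exact two-sided permutation test over the libraries' CPM gave p = 0.1, the smallest that 3 libraries against 3 allow. With no filter, edgeR gave a log2 fold change of 4.44 with an SE of 0.94 (adjusted p = 0.0177), where 0.746% of 40467 genes were called (0.457% higher) and 0.331% of the 5443 genes with 50 to 150 counts in all. DESeq2 gave 4.58 (adjusted p = 0.0117). Without Tet replicate 3 the no-filter value was 3.13 and the call was lost (adjusted p = 0.363), whereas leaving out any other library kept it (adjusted p from 1.8e-05 to 0.00455). *ACTL6B* is the most GC-rich of the 10 genes (59.6%), and Tet replicate 3 is again the library with the highest GC-rich genes; the part of base composition in its level was not tested.

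**Figure D2:**
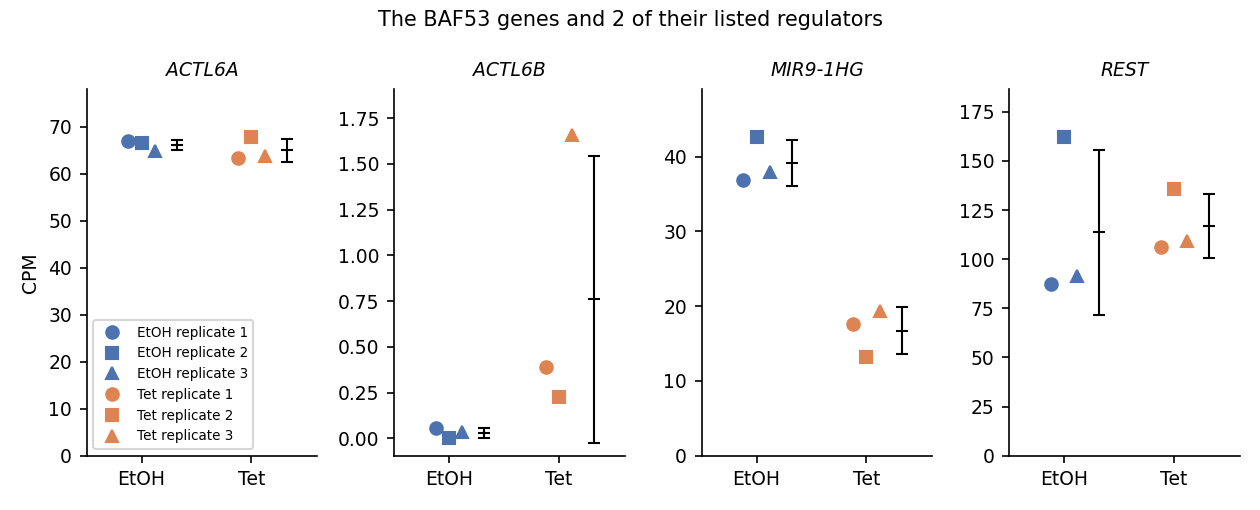
CPM of *ACTL6A*, *ACTL6B*, *MIR9-1HG* and *REST* in each library on linear axes that differ in scale; coloured points are libraries, and black marks with bars are the group mean and SD (n = 3). The *ACTL6A* groups coincide, the Tet libraries lie above the EtOH libraries for *ACTL6B* and below them for *MIR9-1HG*, and the *REST* groups overlap.

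Even in the Tet libraries *ACTL6B* stayed a small part of the pair. Its share of the summed *ACTL6A* and *ACTL6B* level per kilobase was 0.129%, 0% and 0.0786% in EtOH and 0.941%, 0.511% and 3.87% in Tet. The log2 ratio of *ACTL6A* to *ACTL6B* was 10.08 ± 1.02 in EtOH and 6.27 ± 1.49 in Tet (SD, n = 3 each, with 0.5 added to each count). The difference of -3.81 had an exact permutation p of 0.1 (two-sided), or 0.4 after Benjamini-Hochberg adjustment over the 4 pairs compared. Leaving out any 1 library gave differences between -4.44 and -2.99. Exons of *ACTL6A* hold 39.6% GC and those of *ACTL6B* 59.6%. What part base composition has in the share and the ratio was not tested.

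In the other 3 pairs the groups overlapped. The log2 ratio of *ARID1A* to *ARID1B* was 0.87 ± 0.85 in EtOH and 0.22 ± 0.44 in Tet (SD, n = 3 each; exact permutation p = 0.3, adjusted 0.6). *ARID1A* exceeded *ARID1B* per kilobase in 2 of 3 EtOH and 2 of 3 Tet libraries, and replicate 2 of each group had slightly more *ARID1B*. This order depends on the length used: per kilobase of the MANE Select transcript, *ARID1B* made up 46.5%, 72.1% and 50.4% of the pair in EtOH and 65.6%, 74.2% and 61.5% in Tet, and so exceeded *ARID1A* in 5 of 6 libraries. The log2 ratio of *SMARCA4* to *SMARCA2* was 6.32 ± 0.74 and 6.00 ± 1.18 (SD, n = 3 each; exact permutation p = 0.9, adjusted 0.9), so *SMARCA4* dominated in all 6 libraries. *SMARCC1* exceeded *SMARCC2* by log2 ratios of 3.20 ± 0.62 and 3.10 ± 0.27 (SD, n = 3 each; exact permutation p = 0.8, adjusted 0.9), and *SMARCC2* made up 6.49% to 14.1% of that pair. None of these 4 comparisons could have given an exact p-value under 0.1.

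**Figure D3:**
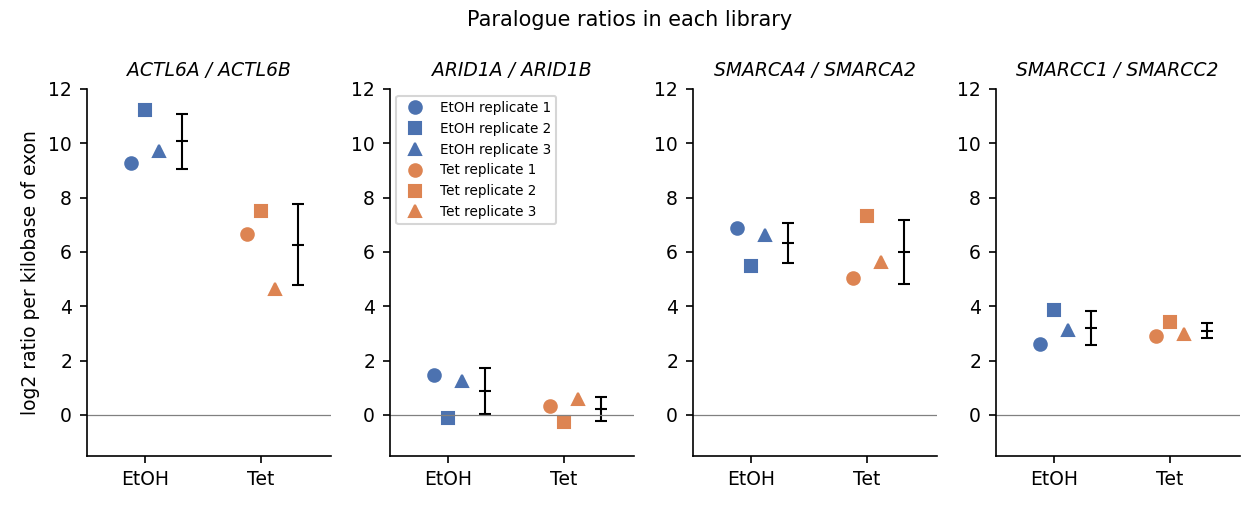
Log2 ratio of the first to the second paralogue, per kilobase of exon and with 0.5 added to each count, in each library; black marks with bars are the group mean and SD (n = 3), and 0 means equal levels. The ratio of *ACTL6A* to *ACTL6B* is lower in all 3 Tet libraries than in the EtOH libraries, and the groups of the other 3 pairs overlap.

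None of the genes known to act on the exchange of BAF53 subunits passed the edgeR test, and *MIR9-1HG* lay closest to the threshold. *MIR9-1HG*, the host transcript of 1 of the miR-9 genes, was at 36.9, 42.7 and 38.0 CPM in EtOH and at 17.6, 13.2 and 19.4 CPM in Tet, with every Tet library below every EtOH library. Its log2 fold change was -1.23 with an SE of 0.19 (edgeR, adjusted p = 0.0538). *REST* overlapped between the groups (log2 fold change 0.04, SE 0.25, edgeR adjusted p = 0.981). *MIR9-3HG* (0.26), *MIR124-1HG* (0.18) and *MIR124-2HG* (-0.12) had log2 fold changes with adjusted p-values of 0.753 or more (edgeR), and *LINC00461*, the host of another miR-9 gene, had 0 counts in all libraries. Of this list 0 of 5 tested genes passed the edgeR test, 1 was at an unadjusted p under 0.05 (10.8% of all genes), and the median log2 fold change was 0.04. DESeq2 called 1, *MIR9-1HG* (2.23% of all its genes), and limma-voom 0. Mature microRNAs are too short to be measured in these libraries.

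Among the other subunits, 0 of the 20 that could be tested were called by edgeR, and 0 by limma-voom or DESeq2. At an unadjusted p under 0.05 there were 2, *SMARCE1* and *BICRA*, both higher in Tet (10.8% of all genes, 5.83% higher). The median log2 fold change was 0.15. Counting all 31 subunits together, 29 were tested and the median was 0.17. An unadjusted p under 0.05 was found for 4, each higher in Tet, against 10.8% of all genes (5.83% higher). Groups did not overlap for 4, all higher in Tet, against 17.5% of all genes (9.2% higher). A count of this size over genes chosen together is given as a description.

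*SMARCE1* (BAF57), a core subunit with an HMG domain, was at 113, 129 and 120 CPM in EtOH and at 154, 197 and 140 CPM in Tet. Every Tet library lay above the EtOH libraries, with a log2 fold change of 0.44 and an SE of 0.17 (edgeR, adjusted p = 0.393). Other annotated genes cover 18.9% of its exon bases. *BICRA* (GLTSCR1), a subunit of the non-canonical complex, had 39, 27 and 24 counts in EtOH and 43, 50.5 and 139 in Tet. Its log2 fold change of 1.17 with an SE of 0.43 (edgeR, adjusted p = 0.377) was 0.62 without Tet replicate 3 and 0.70 after the GC correction; its exons hold 64.6% GC. Its paralogue *BICRAL* had a log2 fold change of 0.09.

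No member of the remaining families passed the test. The PBAF subunits had log2 fold changes of 0.23 (*PBRM1*), -0.08 (*BRD7*) and -0.01 (*PHF10*), and *PBRM1* was at 323 to 394 CPM in EtOH and 383 to 469 CPM in Tet. *BRD9*, the bromodomain subunit of the non-canonical complex, had a log2 fold change of 0.04. The SMARCD (BAF60) paralogues stood at 0.00 for *SMARCD1*, 0.32 for *SMARCD2* and 0.26 for *SMARCD3* on the log2 scale. *SMARCD1*, at 17.6 to 35.9 CPM, was the highest of these 3 per kilobase of exon in the 6-library mean (5.66 CPM, against 1.22 and 0.311).

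None of the tested subunits among the others that change with neuronal differentiation passed the test. In the progenitor complex DPF2 or PHF10 and SS18 are used, and in neurons DPF1, DPF3 and SS18L1 (CREST) take their place. *DPF1* had log2 fold change 0.21 with an SE of 0.41 (1.26 to 2.94 CPM), and *DPF2* -0.10 with an SE of 0.28. *DPF3* had 0 counts in all 6 libraries, which allows up to 0.107 CPM, before the TMM correction, in the library with the lowest total. *SS18* stood at 0.17 with an SE of 0.17 and *SS18L1* at 0.24 with an SE of 0.18, so both pointed the same way. The adjusted p-values of these 4 tested genes ran from 0.717 to 0.946 (edgeR). The BCL7 and BCL11 subunits had log2 fold changes from -0.03 (*BCL7B*) to 0.35 (*BCL7A*), with 0.13 for *BCL7C*, 0.02 for *BCL11A* and 0.18 for *BCL11B*. *ACTB*, the actin that pairs with the actin-related subunit, was at 0.06.

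**Figure D4:**
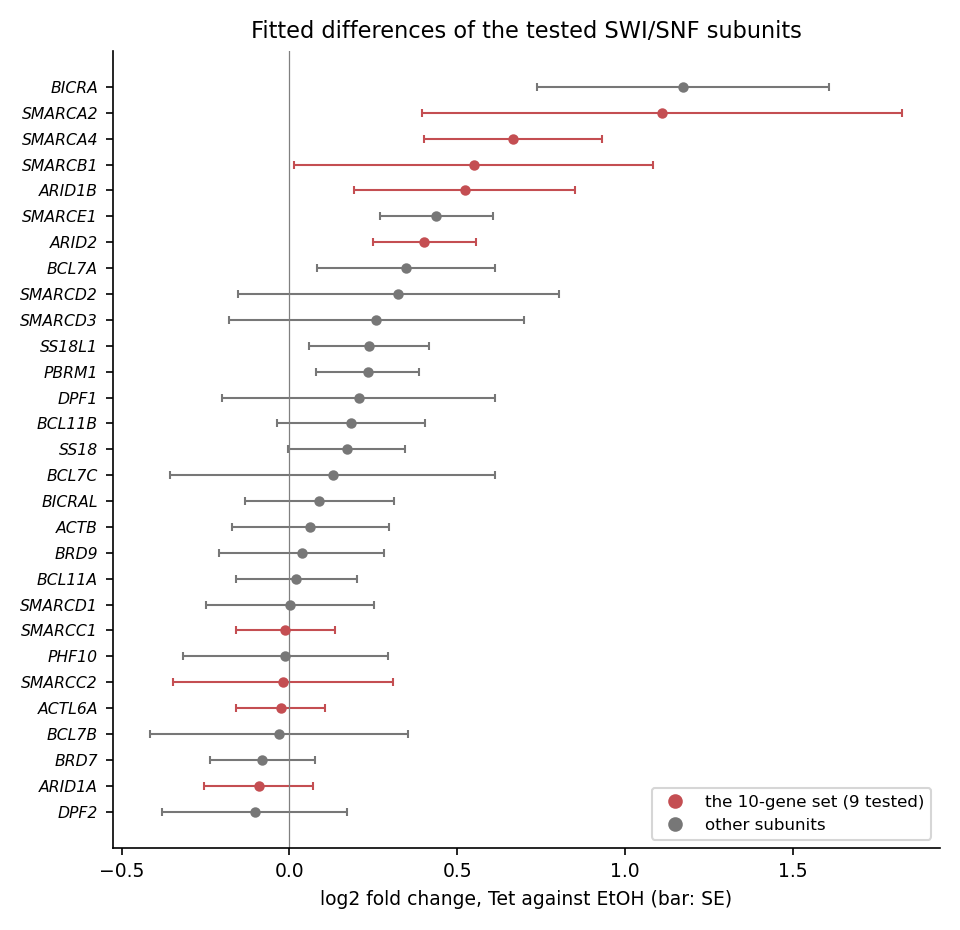
Log2 fold change of Tet against EtOH with its SE (edgeR) for the 29 SWI/SNF subunit genes tested, ordered by value; red points are the 9 tested genes of the 10, and grey points the other subunits. The values run from -0.10 to 1.17, none passed the test, and *ACTL6B* is not drawn because it did not reach the low-count filter.

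Subunit level went with base composition in these libraries. Over the 30 subunits with any count, the mean level per kilobase and the GC share of exon bases had a Spearman correlation of -0.62, a description across genes that share the same 6 libraries. The 17 subunits with at least 50% GC had a median level of 1.08 CPM per kilobase, and the 13 with less had 13.7. Of the 10 genes, *ACTL6B*, *SMARCB1*, *SMARCA4*, *ARID1A* (52.3%) and *SMARCC2* (50.1%) belong to the GC-rich side. *SMARCA4*, *SMARCC2* and *ARID1A*, at 1.41, 3.75 and 8.43 CPM per kilobase, lay above the median of that side. *SMARCA2*, with 44.8% GC, was the lowest of the 30. *ACTB*, with 59.1% GC, was among the highest at 47.4 CPM per kilobase. Whether the low level of GC-rich subunits reflects the library preparation was not tested, and levels are therefore compared between genes only with this in view.

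**Figure D5:**
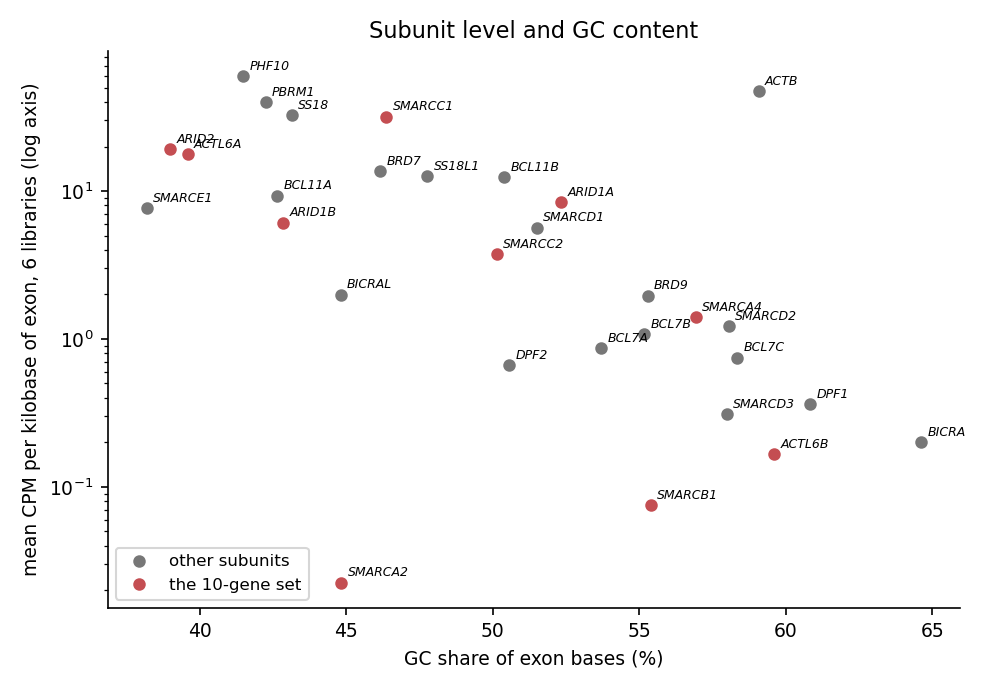
Mean level over the 6 libraries, in CPM per kilobase of exon on a log axis, against the GC share of exon bases for the 30 subunit genes with any count; red points are genes of the 10 and grey points other subunits. Levels tend to be lower toward the GC-rich right, with *ACTB* far above and *SMARCA2* far below the other genes of similar GC content.

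Lists of related genes were read in the same way, and 0 genes of them were called by edgeR or limma-voom. Of 14 tested ATPases of other remodellers, 10 had a log2 fold change above 0 (11069 of all 22443 genes tested), with a median of 0.11. An unadjusted p under 0.05 was reached by 1 (10.8% of all genes). That gene, *ATRX*, the remodeller mutated in some neuroblastomas, had the lowest p (0.47, SE 0.18, adjusted p = 0.377). ACTL6A also belongs to the TIP60 and INO80 complexes, and of 8 genes of those complexes *ACTR5* had the lowest p (-0.66, SE 0.30, adjusted p = 0.476), with a list median of 0.03 and 0 at an unadjusted p under 0.05. DESeq2 called 0 in either list.

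The summed level of neuronal genes differed between the groups without overlap, and its values stand beside those of *ACTL6B*. All 13 tested genes of the neuronal list had a log2 fold change above 0, with a median of 0.60. Over all 22443 genes tested, 11069 were above 0. Of the 13, 6 had an unadjusted p under 0.05, all higher in Tet (10.8% of all genes, 5.83% higher). Groups did not overlap for 6, all higher in Tet (17.5% of all genes, 9.2% higher). The summed level of the list was 1331 to 1607 CPM in EtOH and 2560 to 2687 CPM in Tet. *DCX*, a microtubule protein of migrating neurons, alone made up 52.8% of the rise in the summed means, and *DCX*, *ELAVL4*, *MAP2* and *INA* together 92.6%, while 7 of the 13 tested genes overlapped between the groups. *ELAVL3*, an RNA-binding protein of neurons, had the lowest p (1.21, SE 0.22, edgeR adjusted p = 0.0818). Of 15 proliferation genes, 14 were below 0, with a median of -0.40, where 11374 of all 22443 genes tested were below 0. At an unadjusted p under 0.05 there were 3, all lower in Tet (10.8% of all genes, 4.94% lower). The lowest p was that of the mitotic kinase *AURKA* (-0.72, SE 0.16, edgeR adjusted p = 0.131). The summed proliferation level overlapped between the groups, at 2002 to 3072 CPM in EtOH and 1719 to 2279 CPM in Tet. The 6 tested adrenergic markers had a median of 0.20 (4 above 0, 2 below), with the lowest p for *ISL1* (1.18, edgeR adjusted p = 0.142). At an unadjusted p under 0.05 there were 3, all higher in Tet. The 8 mesenchymal markers were mixed, 6 below 0 and 2 above, with a median of -0.42. The lowest p was that of *PRRX1* (-1.02, edgeR adjusted p = 0.317). At an unadjusted p under 0.05, 2 were lower and 1 higher in Tet (4.94% and 5.83% of all genes). The higher one, *SNAI2*, had overlapping groups (1.84, SE 0.70, edgeR adjusted p = 0.389). DESeq2 called 2 neuronal genes (*DCX* and *ELAVL3*), 2 proliferation genes (*AURKA* and *MCM3*), 2 adrenergic markers (*ISL1* and *PHOX2A*) and 0 mesenchymal markers, where it called 2.23% of all its genes. What part a shift in cell state has in the *ACTL6B* counts was not tested.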

How the data were processed

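The authors deposited a table of estimated counts for each library, with no scaling. Per the file headers, featureCounts 1.6.4 was run on uniquely aligned read pairs and annotated exons, a pair over several genes was split evenly, and strand was ignored. The labels name STAR 2.7.1a and featureCounts 1.5.1, on GRCh38. The 92 spike-ins, at 0 counts in every library, were left out.

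The plan had assumed whole numbers, so the estimated counts were rounded. Genes past filterByExpr were scaled by TMM and tested with the edgeR 4.0.16 quasi-likelihood test (R 4.3.3), with Benjamini-Hochberg adjustment over all genes tested and a threshold of 0.05. The SE is the log2 fold change divided by the square root of F. Paralogue ratios were compared by the exact two-sided permutation test (scipy 1.17.1). Alternatives used limma 3.58.1 (voom) and DESeq2 1.42.0, other scaling, filters and pseudocounts, a replicate block, and each library left out. Steps across all genes were tested on simulated data. Symbols were found for 60437 gene identifiers (99.6%), and 53025 of 53026 shared with GENCODE 44 had the same coordinates. Intervals and floors cover counting error only.

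The 10 genes and all lists were chosen with earlier results of these data known. Named were the 10 genes, *MYCN*, every other subunit tested, and in the other lists each gene that passed the test and the gene with the lowest p. Any other gene named (*GATA3*, *PHOX2A*, *SNAI2*, *DCX*, *ELAVL4*, *MAP2*, *INA*, *MCM3*, *DBH*, *TH*, *DPF3*, *LINC00461*, and the regulators *REST*, *MIR9-3HG*, *MIR124-1HG* and *MIR124-2HG*) was chosen after its values were seen.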

Additional observations from a re-analysis of the deposited data

How the results depend on the processing

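For the 10 genes, *MYCN* and the other subunits, 413 of the single-gene comparisons kept the direction and the side of the threshold, 5 lost the call (all of *ACTL6B*), 1 gained it and 42 changed sign. Of the 10 genes, 1 was called with no filter and 1 by DESeq2, in both cases *ACTL6B*, and 1 with the replicate block, *ARID1B* (log2 fold change 0.57, edgeR adjusted p = 0.0413, where 3.01% of all genes were called); RLE scaling, limma-voom, the GC correction and each library left out gave 0. The other subunits gave 0 throughout. Across all genes tested, 33 were higher and 20 lower, against 13 lower with RLE scaling, 185 and 117 with no filter, 290 and 209 with DESeq2, 421 and 254 with the replicate block and 67 and 47 with the GC correction; with 1 library left out the counts ran from 0 to 361 and from 0 to 331, the largest without EtOH replicate 2. Libraries with the same number had correlated deviations of 0.06, 0.51 and 0.22 from their group means, so the number was not read as a pairing. With that block the paralogue differences had exact p-values from 0.25, the smallest possible, to 1. Single genes changed sign as follows: with the GC correction *SMARCC1* (0.019), *SMARCC2* (0.060), *BRD9* (-0.0053) and *DPF1* (-0.11); with limma-voom *SMARCC2* (0.068) and *PHF10* (0.029); with the replicate block *SMARCC2* (0.079) and *PHF10* (0.024); and *SMARCD1* with RLE scaling (-0.0068), no filter (-0.0052) and DESeq2 (-6.0e-04). With 1 library left out, the log2 fold change crossed 0 for *SMARCC1* (-0.075 to 0.057), *SMARCC2* (-0.31 to 0.34), *MYCN* (-0.22 to 0.21), *SMARCD1* (-0.23 to 0.22), *SMARCD2* (-0.39 to 0.60), *SMARCD3* (-0.26 to 0.49), *BRD9* (-0.17 to 0.17), *PHF10* (-0.27 to 0.39), *DPF1* (-0.29 to 0.42), *DPF2* (-0.29 to 0.081), *BCL7B* (-0.49 to 0.16), *BCL7C* (-0.24 to 0.71), *BCL11A* (-0.11 to 0.22), *BICRAL* (-0.084 to 0.17) and *ACTB* (-0.093 to 0.24); the cause was not tested. For *ACTL6B*, the fits with the low-count filter that leave out an EtOH library or Tet replicate 2 gave log2 fold changes of 3.99 to 5.17 with adjusted p-values of 0.0901 to 0.535 (edgeR), so its call depends on the filter as well as on Tet replicate 3. The difference in the *SMARCA4* to *SMARCA2* ratio ran from -0.99 to 0.15 and that of *SMARCC1* to *SMARCC2* from -0.39 to 0.23 with 1 library left out. With a pseudocount of 0 the *ACTL6A* to *ACTL6B* ratio has no value, because EtOH replicate 2 has 0 *ACTL6B* counts; the other 3 pairs kept their p-values. The GC correction and the *ACTL6B* fits without filter and without 1 library were chosen after seeing the data. Depth limits *ACTL6B*, *SMARCA2* and *SMARCB1*, with 88, 83.5 and 257 counts in all.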
